A study of Arabidopsis thaliana with 20 samples.

Results

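The 10 genes described here encode superoxide dismutases of *A. thaliana* and a small set of proteins that deliver copper or regulate the response to it. They were taken by locus identifier from the 33296 genes of the deposited table of the first sequencing set. They comprise CSD1, CSD2 and CSD3 (copper/zinc forms), CCS (their copper chaperone), FSD1, FSD2 and FSD3 (iron forms), MSD1 (manganese form), the copper transporter gene COPT2 and the regulator gene SPL7. All 10 passed the filter on low values (a normalized count of 10 or more in 4 or more libraries) and were tested, as were 20160 genes in all.

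The question was how growth without active aeration affects gene expression in plant cultures on agar. Col-0 plants grew on sucrose-containing Murashige-Skoog agar in Petri dishes. The labels call the treatments aerated (air pumped through filters in the lid) and non-aerated, and the non-aerated dishes are those described as Parafilm-sealed. One passage of the paper describes the aerated dishes as sealed with Parafilm too. Here Parafilm-sealed stands for the non-aerated dishes only. Each of the 4 replicates per treatment was the pooled shoots of 10 plants, harvested 15 days after vernalization according to the labels. The libraries carry the numbers 1, 3, 5 and 7 (aerated) and 2, 4, 6 and 8 (Parafilm-sealed), which are not replicate numbers. A second set had 4 replicates each of Micropore-sealed, non-aerated and aerated plants, but no value per replicate of that set was used here.

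Superoxide dismutases convert superoxide, a reactive oxygen species made by photosynthetic and respiratory electron transport, into hydrogen peroxide and oxygen. Plants have forms with different metals, and in *A. thaliana* CSD1 is cytosolic, CSD2 is in the chloroplast stroma, CSD3 is peroxisomal, FSD1 is in the stroma and the cytosol, FSD2 and FSD3 are with the chloroplast nucleoids, and MSD1 is mitochondrial. When copper is scarce, the transcription factor SPL7 is known to activate FSD1, COPT2 and the genes of microRNA miR398. miR398 in turn guides the cleavage of CSD1, CSD2 and CCS mRNA, so that an iron enzyme takes the place of the copper enzymes.

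Between 34330463 and 60255788 reads were recovered per library. Library 5 had the lowest score on the first principal component of all tested genes (-67.8, with -45.1 to -34.4 for the other aerated libraries). Library 8 stood apart on the second component (-52.6, with -17.5 to 26.3 for the other 7), and some of the results are also given without it. The 5 leaf markers summed to between 1809260 and 2899950 normalized counts in every library. The 9 root markers (such as CASP1 and COBL9) summed to 94.8 to 259.7 in aerated and 60 to 147.7 in Parafilm-sealed plants, and each was above 0 in at least 1 library.

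The copper/zinc genes CSD1 and CSD2 rose in Parafilm-sealed plants, by 1.77-fold and 1.82-fold, whereas none of the other 8 genes passed the test. Thus 2 of 10 passed at an adjusted p of 0.05, both higher, where 22.4% of all tested genes passed in either direction, 12.4% higher and 10.0% lower. The background share was between 14.0% (without library 7) and 24.9% (without library 8) with a library left out, and 28.1% with DESeq2. The share of 20% lies near the 22.4% of all tested genes, and DESeq2 called 3 of the 10 beside its 28.1%. With 10 genes, the count itself is no result about these genes. Both changes were smaller than 2-fold, and 7.88% of all tested genes passed with a change of 2-fold or more (5.24% higher and 2.63% lower). Their median log2 change was 0.02, and that of all tested genes was -0.0024. The tissue was whole shoots, so a change in the share of a cell type and a change in RNA per cell cannot be told apart.

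**Figure D1:**
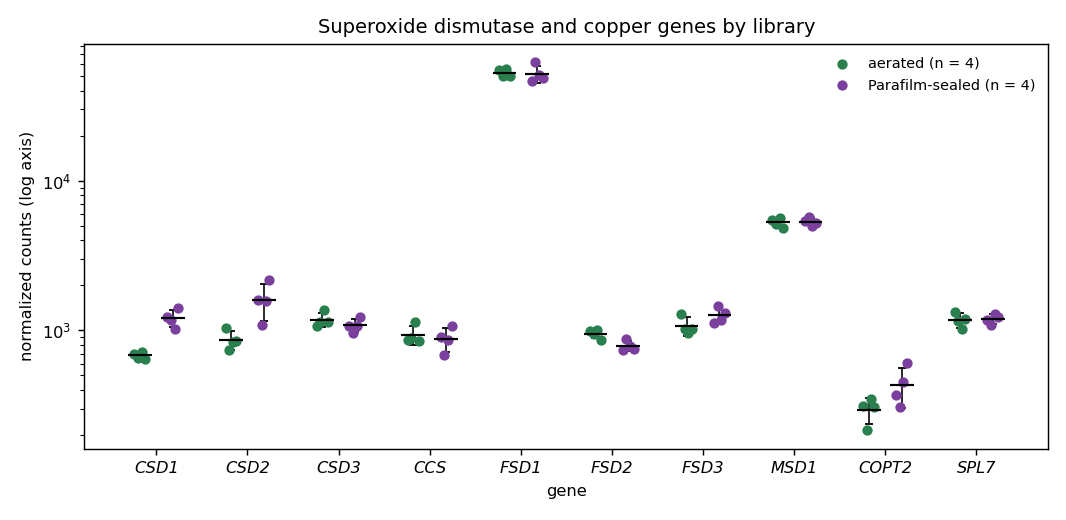
Normalized counts (log axis) of the 10 genes in each library of aerated (green) and Parafilm-sealed (purple) plants. Points are single libraries, horizontal lines are means and bars are standard deviations (n = 4). The libraries of the treatments are separated for CSD1 and CSD2 and overlap for the other 8 genes, and FSD1 lies above all others.

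CSD1 (AT1G08830, chromosome 1) had 699, 654, 723 and 646 normalized counts in the aerated libraries 1, 3, 5 and 7. It had 1233, 1173, 1019 and 1413 in the Parafilm-sealed libraries 2, 4, 6 and 8. The lowest Parafilm-sealed library was above the highest aerated one, and the aerated libraries lay close together. The log2 change (Parafilm-sealed over aerated) was 0.82 (standard error, SE, 0.11, adjusted p = 0.00102, limma), with a 95% interval of the fold change of 1.49 to 2.10. The 3′ end of CSD1 overlaps, by 211 bases, a gene on the opposite strand (AT1G08840), where reads of this unstranded library type cannot be assigned to a strand.

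CSD2 (AT2G28190, chromosome 2) had 1037, 742, 836 and 845 normalized counts in the aerated libraries 1, 3, 5 and 7. The Parafilm-sealed libraries 2, 4, 6 and 8 had 1604, 1082, 1580 and 2171. The treatments did not overlap, but library 4 was only just above the highest aerated library, and library 8 was the highest. The log2 change was 0.86 (SE 0.19, adjusted p = 0.0108, limma). Without library 8 it was 0.70 (adjusted p = 0.0129), and without library 4 it was 1.04 (adjusted p = 0.0027). The treatments did not overlap in 2 of the 10 genes and in 27.3% of all tested genes (14.3% higher and 13.0% lower).

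CSD3 and the chaperone gene CCS did not pass the test. CSD3 (AT5G18100) had 1067, 1139, 1363 and 1136 normalized counts in aerated libraries and 1076, 956, 1076 and 1221 in Parafilm-sealed libraries. Its log2 change was -0.12 (95% interval -0.37 to 0.13, adjusted p = 0.477, limma). CCS (AT1G12520), which inserts copper into the copper/zinc enzymes, had 863, 892, 1134 and 849 normalized counts in aerated libraries. In Parafilm-sealed libraries it had 900, 687, 862 and 1073. The ranges overlapped, and the log2 change was -0.09 (95% interval -0.43 to 0.24, adjusted p = 0.695, limma). Both intervals end below the changes of CSD1 and CSD2. CSD3 overlaps genes on the opposite strand (AT5G02875 by 405 bases and AT5G18110 by 142), where reads are likewise uncertain. Within each library, CSD2 relative to CCS had a log2 ratio of 0.26, -0.26, -0.44 and -0.01 in aerated plants. It was 0.83, 0.66, 0.87 and 1.02 in Parafilm-sealed plants, above every aerated library.

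**Figure D2:**
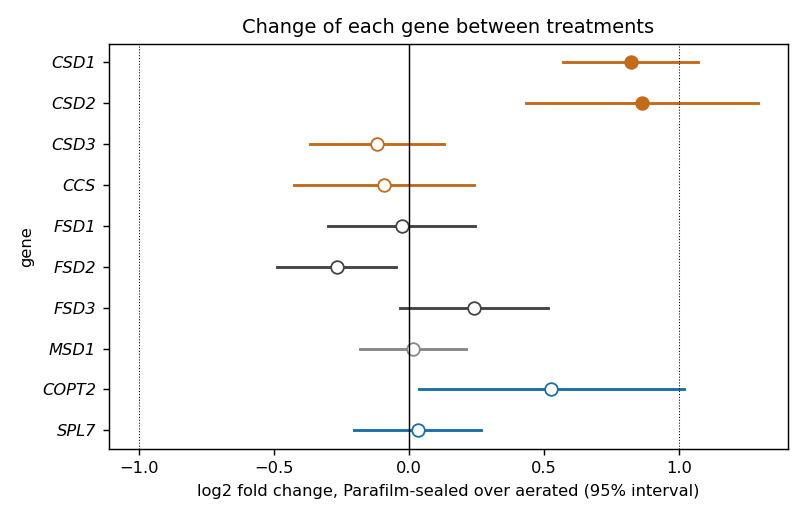
Log2 change of each of the 10 genes (Parafilm-sealed over aerated) with its 95% interval from limma, in orange for copper/zinc enzymes and their chaperone, dark grey for iron forms, light grey for MSD1 and blue for copper genes. Filled points have an adjusted p value under 0.05, and dotted lines mark a change of 2-fold. Only CSD1 (0.82) and CSD2 (0.86) are filled.

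The iron form FSD1 (AT4G25100, chromosome 4) was by far the most abundant of these transcripts, and its level was close in both treatments. It had 54768, 50083, 55816 and 50592 normalized counts in aerated and 46384, 61928, 51289 and 48699 in Parafilm-sealed libraries. Library 4 was the highest and library 2 the lowest of all 8, so the Parafilm-sealed range enclosed the aerated one. The log2 change was -0.03 (SE 0.12, adjusted p = 0.894, limma), with a 95% interval of -0.30 to 0.25. Per kilobase of exon, FSD1 had 34008 ± 1867 (SD, n = 4) normalized counts in aerated and 33532 ± 4422 (SD, n = 4) in Parafilm-sealed plants. By this measure it was the gene at position 73 of the 20038 tested genes with an annotated length.

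FSD2 and FSD3 act as a pair in the chloroplast nucleoids, where both belong to the proteins bound to the plastid-encoded RNA polymerase. Their values leaned in opposite directions, and neither passed the test. FSD2 (AT5G51100) had 996, 946, 1007 and 860 normalized counts in aerated libraries and 742, 883, 781 and 755 in Parafilm-sealed libraries. Only library 4 overlapped with the aerated range, through library 7. The log2 change was -0.27 (95% interval -0.49 to -0.05), with an unadjusted p of 0.0208 and an adjusted p of 0.0761 (limma), and with DESeq2 the adjusted p was 0.046. FSD3 (AT5G23310) had 1293, 1015, 963 and 1015 normalized counts in aerated libraries, of which library 1 was the highest. In Parafilm-sealed libraries it had 1122, 1454, 1172 and 1305, a log2 change of 0.24 (95% interval -0.04 to 0.52, adjusted p = 0.194, limma). Of the 12 genes of polymerase-associated proteins, these 2 included, none passed the test with limma or edgeR, where 22.4% of all tested genes did with limma, their median being 0.01 (log2). An unadjusted p under 0.05 was found for 2 of the 12 with limma, and DESeq2 called 1, FSD2. Among them FSD2 had the largest change, and PTAC7 (AT5G24314) had the smallest, with a log2 change of -0.003.

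The mitochondrial MSD1 (AT3G10920, chromosome 3) was the second most abundant superoxide dismutase transcript. It had 5484, 5163, 5681 and 4806 normalized counts in aerated and 5359, 5727, 5007 and 5239 in Parafilm-sealed libraries. Its values were almost the same in both treatments, with a log2 change of 0.01 (95% interval -0.18 to 0.21, adjusted p = 0.924, limma). The related gene MSD2 (AT3G56350) had at most 1.70 normalized counts in any library and was not tested. MTM1 (AT4G27940), a mitochondrial carrier connected with the activation of MSD1, rose by 0.46 on the log2 scale (adjusted p = 0.0271, limma). It had 208, 236, 287 and 228 normalized counts in aerated libraries and 326, 334, 308 and 346 in Parafilm-sealed libraries. With a library left out its adjusted p was between 0.0108 and 0.0802, and the call was lost without library 1 (0.0703), 3 (0.0663), 7 (0.0802), 2 (0.0595) or 4 (0.056). CPN20 (AT5G20720), a chaperonin connected with the activation of FSD1, had a log2 change of -0.11 (adjusted p = 0.522).

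Because FSD1 is so abundant, the change of CSD1 and CSD2 moved the make-up of the superoxide dismutase transcripts only by a few percentage points. Of the summed level per kilobase of the 7 genes, FSD1 made up 78.1% ± 0.3 (SD, n = 4) in aerated and 75.5% ± 2.8 (SD, n = 4) in Parafilm-sealed plants. CSD1 and CSD2 together made up 3.95%, 3.51%, 3.52% and 3.72% in the aerated libraries. They made up 7.24%, 4.69%, 6.18% and 8.55% in the Parafilm-sealed libraries, so that every sealed library was above every aerated one, and library 8 was the highest. With CSD3 added, the copper/zinc forms made up 7.09%, 7.18%, 7.47% and 7.38% in the aerated and 10.8%, 7.21%, 9.50% and 12.3% in the Parafilm-sealed libraries. Library 4 lay within the aerated range and library 8 was the highest, so the share of all 3 forms did not separate the treatments. The summed level of the 7 genes was 43524 ± 2451 (SD, n = 4) normalized counts per kilobase in aerated and 44327 ± 4311 (SD, n = 4) in Parafilm-sealed plants, a difference within the spread between libraries. These shares describe transcripts and not enzyme amounts.

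**Figure D3:**
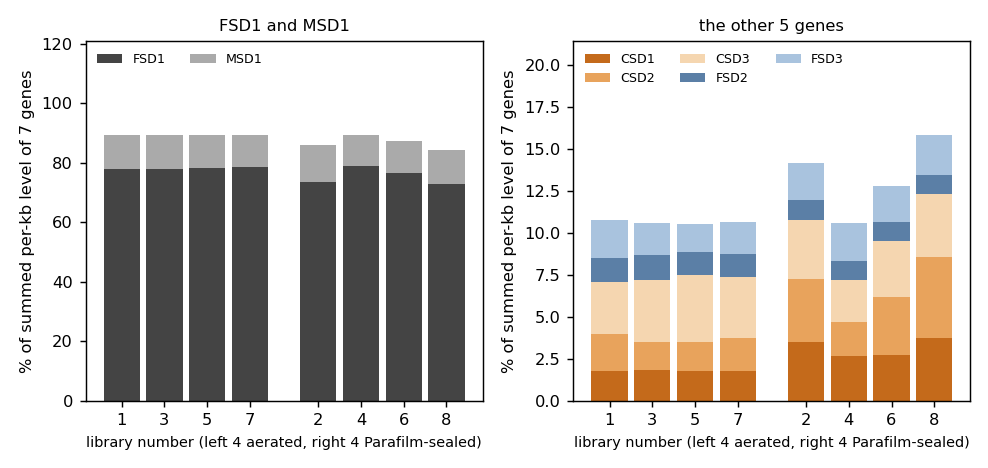
Share of each superoxide dismutase gene in the summed level per kilobase of the 7 genes, in each library (bars, library numbers on the x axis, aerated on the left and Parafilm-sealed on the right in each panel). The left panel stacks FSD1 and MSD1 and the right panel the other 5 genes on a finer scale. CSD1 and CSD2 together take 3.51% to 3.95% in aerated and 4.69% to 8.55% in Parafilm-sealed libraries.

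The contrast between the copper/zinc and iron forms was also taken within each library, as a description. The log2 ratio of CSD1 to FSD1 was -6.29, -6.26, -6.27 and -6.29 in aerated libraries. It was -5.23, -5.72, -5.65 and -5.11 in Parafilm-sealed libraries, all above the aerated ones. The aerated libraries held this ratio within 0.02 (SD), while it spread by 0.30 (SD) in the Parafilm-sealed libraries. For CSD2 to FSD1 the ratio was -5.72, -6.07, -6.06 and -5.90 in aerated and -4.85, -5.84, -5.02 and -4.49 in Parafilm-sealed libraries. Here library 4 overlapped with the aerated library 1, since this library had both the lowest CSD2 and the highest FSD1 counts of its treatment. The mean ratio differed by 0.85 (CSD1) and 0.89 (CSD2) on the log2 scale, and without library 8 by 0.74 and 0.70.

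The mature miR398 sequences are shown because CSD1, CSD2 and CCS are targets of this microRNA and only 2 of these 3 rose. They were read from the TAIR10.1 genome at the RefSeq annotation, as DNA letters from 5′ to 3′, with the seed (bases 2 to 8) in capitals. The variants encoded by MIR398B and MIR398C (chr5:4691107-4691127 and chr5:4694778-4694798, both on the plus strand) are identical, and that of MIR398A (chr2:1041012-1041032, plus strand) has the same seed.
miR398a: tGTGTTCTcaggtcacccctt
miR398b: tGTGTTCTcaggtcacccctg
miR398c: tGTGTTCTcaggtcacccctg
The stretch of each annotated target that matches the complement of miR398b and miR398c best is given below, with matching bases in capitals. A base that pairs as G with U was counted as a difference, as was an extra base in the transcript.
CSD1: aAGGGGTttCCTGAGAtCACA
CSD2: tgcGGGTGACCTGgGAAaCAtA
CCS: CAttGGGaGACCTGgGAACACt
COX5B-1: aAGGtGTGACCTGAGAAtCACA
The CSD1 stretch is in the 5′ UTR, on the plus strand at chr1:2827177-2827685, and is interrupted by an intron. Those of CSD2 (chr2:12015572-12015593, plus strand) and CCS (chr1:4267521-4267542, minus strand) are in coding exons. That of COX5B-1 (AT3G15640, chr3:5299204-5299225, plus strand), a subunit of cytochrome c oxidase, is in the 5′ UTR. There were 4 differences in CSD1, 6 in CSD2, 5 in CCS and 3 in COX5B-1. A stretch with as few differences was found in 7 (CSD1), 659 (CSD2), 68 (CCS) and 2 (COX5B-1) of 31340 loci with an annotated mRNA. Such a match is a description of the letters and no evidence of cleavage.

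Of the loci that make miR398, MIR398C (AT5G14565, chromosome 5, 4694694 to 4694808) fell in Parafilm-sealed plants. It had 100, 101, 112 and 134 normalized counts in the aerated libraries 1, 3, 5 and 7, and 49.2, 44.5, 65.9 and 48.2 in the Parafilm-sealed libraries 2, 4, 6 and 8. Every Parafilm-sealed library was below every aerated library. The log2 change was -1.10 (SE 0.19, adjusted p = 0.00322, limma), and with each library left out the adjusted p was between 0.00314 and 0.0158. The annotated locus is a hairpin of 115 bases that overlaps no other annotated gene. The libraries were made from mRNA, so the mature microRNA was not measured. Which transcripts the counts of this locus came from was not examined. The counts of MIR398A were not examined. MIR398B (AT5G14545) was listed at 0 in every library, as were MIR397A and MIR408. Each of these 3 loci lies wholly within a gene on the opposite strand, where unstranded reads cannot be told apart.

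The 4 targets on the list did not move together. CSD1 and CSD2 rose, whereas CCS and COX5B-1 did not pass the test. COX5B-1 had 1911, 1877, 2290 and 2022 normalized counts in aerated and 1991, 1773, 1756 and 1844 in Parafilm-sealed libraries, a log2 change of -0.13 (95% interval -0.34 to 0.07, adjusted p = 0.333, limma). The part of MIR398C in the change of CSD1 and CSD2 was not tested.

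**Figure D4:**
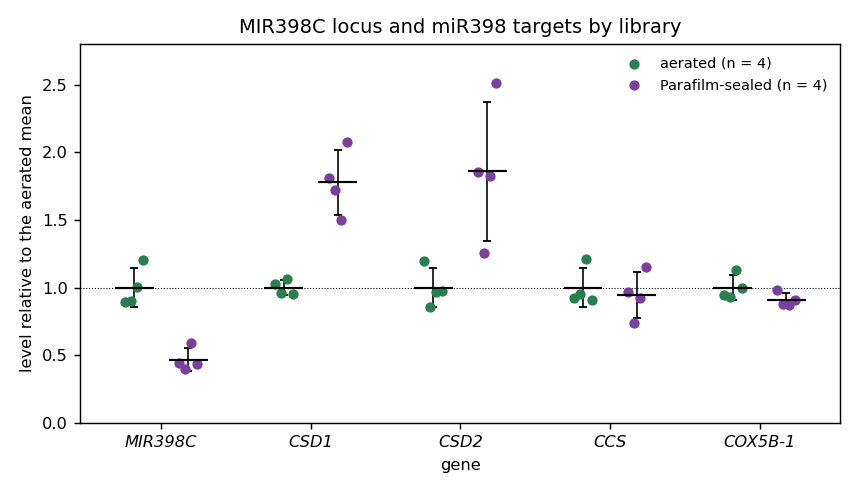
Levels of the MIR398C locus and of 4 genes targeted by miR398, each divided by its mean in aerated plants, in aerated (green) and Parafilm-sealed (purple) libraries. Points are libraries, lines are means and bars are standard deviations (n = 4). MIR398C is lower in all 4 Parafilm-sealed libraries, CSD1 and CSD2 are higher in all 4, and CCS and COX5B-1 overlap.

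SPL7 (AT5G18830, chromosome 5), the regulator of the copper response, had 1331, 1164, 1017 and 1186 normalized counts in aerated libraries. In Parafilm-sealed libraries it had 1174, 1088, 1298 and 1226. The ranges overlapped, with a log2 change of 0.03 (95% interval -0.21 to 0.27, adjusted p = 0.863, limma). COPT2 (AT3G46900, chromosome 3), a copper importer of the plasma membrane, had 311, 215, 348 and 309 normalized counts in aerated and 371, 307, 450 and 607 in Parafilm-sealed libraries. Libraries 2, 6 and 8 were above all aerated libraries, and library 4 was within their range. The log2 change was 0.53 (95% interval 0.04 to 1.02), with an unadjusted p of 0.0379 and an adjusted p of 0.114 (limma). Without library 8 it was 0.35 (adjusted p = 0.215), so a change of COPT2 was not shown with these replicates. Without library 3 it was 0.38.

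Of the 14 known targets of the copper deficiency response, FSD1 and COPT2 included, 10 were tested, of which 1 rose, 2 fell and 7 did not pass the test. This is 30% of 10 genes, beside 22.4% of all tested genes, and is read as no result about the list. The 2 that fell were MIR398C and FRO4, and the 10 had a median of -0.05 (log2). FRO4 (AT5G23980), a copper and iron reductase gene, had 214, 324, 371 and 337 normalized counts in aerated and 110, 64.9, 119 and 115 in Parafilm-sealed libraries. Every Parafilm-sealed library was below every aerated one, with a log2 change of -1.61 (SE 0.24, adjusted p = 0.00135, limma). FRO4 has a close neighbouring copy, FRO5, with 1.3 to 16.8 normalized counts, and reads shared by such copies may not be assigned. The summed root markers overlapped between treatments (94.8 to 259.7 aerated, 60 to 147.7 sealed), and none of the 3 that could be tested passed, with a median log2 change of -0.95. Their part in the decrease of FRO4 was not tested. YSL2 (AT5G24380), a transporter of metals bound to nicotianamine, rose from 1137, 917, 850 and 964 to 1385, 1422, 1658 and 2150 normalized counts. This is a log2 change of 0.76 (SE 0.15, adjusted p = 0.0064, limma), or 0.63 to 0.84 with a library left out. The copper transporter genes COPT1 and COPT6 had log2 changes of -0.26 (adjusted p = 0.351) and -0.07 (adjusted p = 0.864), and the copper chaperone gene CCH had -0.22 (adjusted p = 0.216). COPT6 had 1612 normalized counts in library 8 and 715 to 780 in the other Parafilm-sealed libraries.

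Among 13 copper transporters and chaperones, 12 were tested, and 1 of them passed the test (8.33%, beside 22.4% of all tested genes). PAA2 (AT5G21930), which pumps copper into thylakoids, fell by 0.46 on the log2 scale (adjusted p = 0.0398, limma). It had 6788, 7338, 7411 and 7534 normalized counts in aerated and 5081, 3978, 6330 and 6032 in Parafilm-sealed libraries. The call was lost without any 1 of the libraries 1, 3, 5, 7, 2 or 4 (adjusted p from 0.0586 to 0.102). The largest change on this list was that of COPT4 (-1.04, adjusted p = 0.0973) and the smallest that of HMA5 (-0.01). Per kilobase of exon the highest levels were those of CCH and ATX1, and ATX1 had a log2 change of 0.07 (adjusted p = 0.696).

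Laccases and plantacyanin are copper proteins of the cell wall, and their mRNAs are cut by other microRNAs of the copper response. Of 8 such genes 7 were tested, of which 2 fell, beside 10.0% of all tested genes that fell. With 7 genes, and with the call of LAC7 lost in 6 of 8 fits without a library, nothing is read from this count. LAC3 (AT2G30210) had 419, 378, 464 and 402 normalized counts in aerated and 112, 120, 113 and 178 in Parafilm-sealed libraries, a log2 change of -1.69 (SE 0.17, adjusted p = 0.000245, limma). Both treatments were far apart, and library 8 was the highest of the sealed ones. LAC7 (AT3G09220) fell by 0.62 (adjusted p = 0.0367), and the call was lost without library 1, 5, 7, 4, 6 or 8 (adjusted p from 0.0507 to 0.0738). LAC4, the laccase with the highest level per kilobase, had a log2 change of -0.19 (adjusted p = 0.623), and LAC12 had the smallest change (0.13, adjusted p = 0.883). The part of root tissue, whose markers are given beside FRO4, in the decrease of LAC3 was not tested.

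Plastocyanins, assembly factors of cytochrome c oxidase and its subunit COX5B-1 formed a further list of 8 genes. None of the 8 passed the test with limma, edgeR or DESeq2, also at an unadjusted p of 0.05. Their median was 0.03 (log2). PETE2 (AT1G20340), the major plastocyanin of the thylakoid lumen, had 145717, 148114, 191189 and 151576 normalized counts in aerated and 157118, 140649, 178990 and 166336 in Parafilm-sealed libraries (log2 change 0.02, 95% interval -0.32 to 0.35). Its paralog PETE1 (AT1G76100) had a log2 change of -0.31 (adjusted p = 0.207), and COX17-2 had the largest change of the list (-0.34, adjusted p = 0.206). Of 5 metallothionein genes, which encode small copper-binding proteins, 4 were tested and none passed with any of the 3 tools, also at an unadjusted p of 0.05. The log2 changes were -0.33 for MT3, -0.21 for MT2A and 0.05 for MT2B. Over all 47 tested genes of the related lists that are not among the 10, 2 rose and 5 fell, a share of 14.9% against 22.4% of all tested genes.

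**Figure D5:**
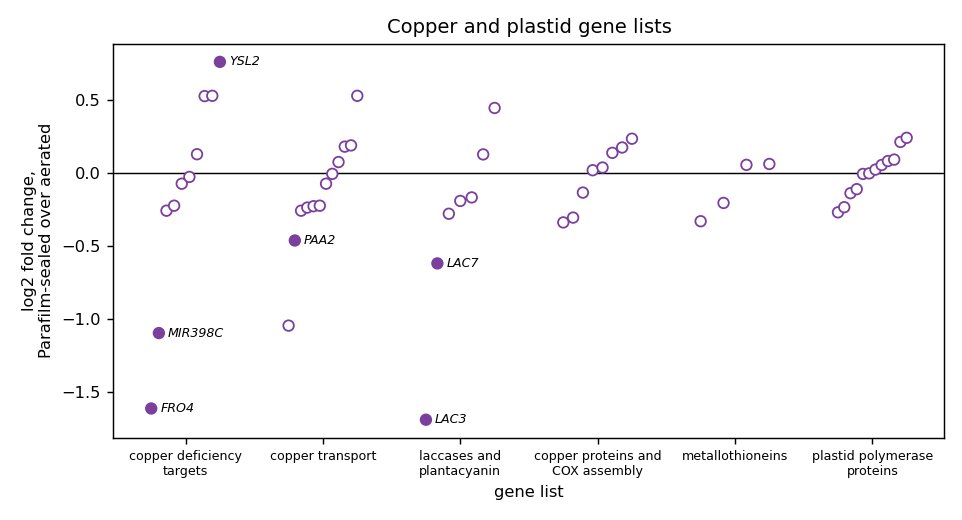
Log2 changes (Parafilm-sealed over aerated) of the tested genes of 6 lists, with 1 point for each gene. Filled points have an adjusted p value under 0.05 and are named, and COPT1, COPT2, COPT6 and CCH stand in both of the first lists. FRO4, LAC3 and MIR398C are the 3 filled points beyond a decrease of 2-fold.

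The genes also varied among libraries of the same treatment. Library 8 was the highest Parafilm-sealed library for 5 of the 10 genes and library 4 for 4, and library 4 was the lowest for 5. Among aerated libraries, library 5 was the highest for 7 genes. Over the 8 libraries, the deviations from the treatment mean (log2) correlated most between CSD3 and CCS (r = 0.96, and 0.94 without library 8), followed by FSD1 and FSD2 (0.89 and 0.88). CSD2 deviated with COPT2 (r = 0.83, and 0.68 without library 8) and opposite to FSD1 (r = -0.57, and -0.54 without it). The points share their library, so these values describe how the libraries differ and are no test.

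The genes whose log2 values were most like those of CSD2 over the 8 libraries were AT2G41905 (r = 0.98, log2 change 0.78), AT1G36990 (r = 0.98), AT1G28140 (r = 0.98), AT1G20823 (r = 0.98, log2 change 1.59) and AT2G42770 (r = 0.97). For FSD1 they were EMB2799 (AT2G39080, r = 0.96), AT3G48180 (r = 0.96), AT1G65020 (r = 0.95), AT1G08310 (r = 0.94) and AT4G04565 (r = 0.93). All were picked for the highest r among the 20160 tested genes over only 8 libraries, so these r values are no test. Those like CSD2 followed the treatment to different degrees. None of those like FSD1 passed the test, with adjusted p values from 0.354 to 0.966.

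The letters GTAC form the core that SPL7 binds, and they were searched in the 250 bases before to 50 bases after the annotated start of each gene (TAIR10.1, RefSeq, the word is its own reverse complement). They occurred in 5 of the 10 windows and in 39% of those of 27443 protein-coding genes. CSD1 had 2 adjoining copies, where 9.76% of all windows had 2 or more. CSD3, CCS, FSD1 and COPT2 had 1 each, and that of COPT2 was after the annotated start. None was in the windows of CSD2, FSD2, FSD3, MSD1 and SPL7.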

How the data were processed

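RNA of pooled shoots was sequenced as unstranded single-end libraries. According to the submitters' processing notes, HISAT2 2.0.4 served for alignment (TAIR10) and featureCounts 1.5.2 for counting (Araport11), and the authors divided each count by a DESeq2 size factor. The deposited signal is this normalized count, rounded to 1 decimal. The authors' deposited log2 fold changes and adjusted p-values (first set), and the table of such values for the second set, were not used. Whole reads were recovered from the steps between low values (0.753 to 1.32 normalized counts per read), and at least 99.996% of values above 0 were whole within rounding (0.06). The column names give the treatment and a library number only.

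Normalized counts, with 1 added, were put on a log2 scale and compared with limma 3.58.1 (trend, R 4.3.3), with Benjamini-Hochberg adjustment over all 20160 genes tested. Log2 changes are Parafilm-sealed over aerated. Alternatives were edgeR 4.0.16 (quasi-likelihood) and DESeq2 1.42.0 on recovered reads, TMM or library-total scaling, pseudocounts of 0.5 and 10, no filter on low values, and each library left out. The fits were tested on simulated data. Levels of different genes were compared per kilobase of exon (RefSeq, TAIR10.1), and 99.1% of identifiers were matched. The files hold no coordinates, so sequences and positions are those of TAIR10.1.

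The 10 genes and the related lists were chosen with earlier results of these data known. Genes named from the related lists are those with an adjusted p under 0.05 and a fold of at least 2, the largest and smallest change and the 2 highest levels of a list. Others were named after their values were seen. No p value was adjusted over a list alone.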

Additional observations from a re-analysis of the deposited data

Results flagged for a closer look

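In 34 groups of 4 libraries (17 genes in 2 treatments), the gap of the highest or lowest library to its neighbour was compared with the range of the group (Dixon's ratio). Chance alone flags about 1 in 20 groups, and 3 exceeded its 95% critical value. CCS in aerated plants had a ratio of 0.848, with 1134 normalized counts in library 5 and 849 to 892 in the others. FSD3 in aerated plants had a ratio of 0.84, with 1293 normalized counts in library 1 and 963 to 1015 in the others. LAC3 in Parafilm-sealed plants had a ratio of 0.867, with 178 normalized counts in library 8 and 112 to 120 in the others.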

How the results depend on the processing

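CSD1 and CSD2 were called in every alternative, and DESeq2 on recovered reads called FSD2 as well (log2 fold change -0.27, adjusted p = 0.046). With a library left out, the count of all genes with an adjusted p under 0.05 was between 2852 (without library 7) and 5065, against 4508. The count at 2-fold or more was between 1308 and 1708 in the same way, and between 1440 and 1756 in the other alternatives. Signs near 0 turned with a library left out, where the log2 fold change ranged from -0.194 to 0.0204 for CCS, from -0.114 to 0.0251 for FSD1, from -0.0301 to 0.0504 for MSD1 and from -0.0367 to 0.0929 for SPL7. The cause was not tested. The log2 ratio difference was between 0.70 and 1.15 for CSD2 to FSD1 and between 0.74 and 0.95 for CSD1 to FSD1. No paired analysis was possible because the table's columns carry library numbers and not the replicate numbers of the labels.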
